A study of Mus musculus with 4 samples.

Results

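The genes described here are 9 complement components and regulators, C3, C4b, C1ra, C1s1, Cfb, C2, Serping1, Cd55 and Cd59a, out of 25239 gene symbols counted in primary chondrocytes (cartilage cells) of the mouse. They were taken by symbol from a fixed list, and all 9 were present and above the filter on low counts. RNA-seq of poly(A) RNA was done on 2 libraries from mice with the genotype Tiki2 fl/fl; Col2a-CreERT2 (conditional knockout, cKO), where the inducible Cre is under Col2a1 control, and 2 from Tiki2 fl/fl mice (control). All 4 cultures received 4-hydroxytamoxifen, which switches on the Cre recombinase in cells that use the Col2a1 promoter, and all carry floxed alleles of Tiki2 (gene symbol Trabd2b), an inhibitor of Wnt signalling. No source used here gives the strain, age or number of animals, or whether replicates are separate cultures, so the p-values reflect the spread between libraries alone, which may be technical. Since the Cre was present in the cKO cultures alone, its own effect and loss of Tiki2 cannot be told apart.

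Complement is a cascade of blood and tissue proteins that marks targets for removal. In the classical route the proteases C1r and C1s, held on the recognition protein C1q, cut C4 and C2 to form an enzyme that cuts C3. In the alternative route factor B, activated by factor D, takes the place of C2, and the 2 routes meet at C3 and lead on to the membrane attack complex of C5 to C9. C1 inhibitor (Serping1) blocks C1r and C1s, decay-accelerating factor (Cd55) takes apart the enzymes that cut C3, and CD59 stops the attack complex. Most circulating complement comes from the liver, but chondrocytes and synovial cells also make components, and complement is active in osteoarthritic joints.

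Sequence upstream of 3 of the genes is shown because they stand at different places in the comparison of genotypes below: C3 had the lowest unadjusted p of the 9 and a lower level in cKO, Cd55 the next lowest p and a higher level, and C1s1 nearly equal levels. Each run is the 250 bases before the RefSeq gene start on GRCm38.p6, read 5′ to 3′ on the gene's strand, and capitals mark a match to the C/EBP motif TTGCNNAA on either strand. C/EBP proteins are transcription factors of the acute-phase response.
C3, chr17:57228137-57228386, minus strand: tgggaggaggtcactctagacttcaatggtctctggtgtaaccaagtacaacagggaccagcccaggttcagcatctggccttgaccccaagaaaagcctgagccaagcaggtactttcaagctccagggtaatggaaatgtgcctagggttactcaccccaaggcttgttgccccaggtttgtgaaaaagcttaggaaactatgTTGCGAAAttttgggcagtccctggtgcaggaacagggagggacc
Cd55, chr1:130462745-130462994, minus strand: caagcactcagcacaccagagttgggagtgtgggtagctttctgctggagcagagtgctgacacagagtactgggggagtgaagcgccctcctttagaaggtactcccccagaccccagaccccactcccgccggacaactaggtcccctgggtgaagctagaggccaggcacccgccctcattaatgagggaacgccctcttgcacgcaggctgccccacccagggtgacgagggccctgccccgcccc
C1s1, chr6:124542360-124542609, minus strand: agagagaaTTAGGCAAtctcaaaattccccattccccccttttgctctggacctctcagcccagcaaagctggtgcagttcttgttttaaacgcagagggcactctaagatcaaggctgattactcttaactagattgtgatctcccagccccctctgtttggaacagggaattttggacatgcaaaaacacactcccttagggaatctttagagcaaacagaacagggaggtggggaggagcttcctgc
The C3 run held the match TTGCGAAA, from 45 to 38 bases before the start, and the C1s1 run held TTAGGCAA, the motif on the other strand, from 242 to 235 bases before it. The Cd55 run, and the window of a further RefSeq start of C1s1, had no match to these letters. Of 32851 such windows in the RefSeq table, 9.56% held the C/EBP motif. The TATA box TATAAA (12.4% of windows), the STAT motif GAS, TTCNNNGAA (7.02%), the NF-kB site known as kappaB (3.9%) and the interferon motif ISRE (2.98%) were also searched on both strands, with no match in these 3 runs. Windows were found for C3, C1ra, C1s1, Cd55 and Cd59a. Among the others searched, Cd59a held GAAAGGGAAA, an ISRE match from 187 to 178 bases before its start. No searched motifs overlapped in these windows.

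Libraries held 76425194 and 78873054 counts in cKO and 66750140 and 77285899 counts in controls. Trabd2b had 22643 and 29473 counts in cKO and 28513 and 31314 in controls, or 292 and 363 CPM in cKO and 436 and 415 CPM in controls. Both cKO libraries were below both controls, with a log2 fold change of -0.38 ± 0.11 (SE, edgeR adjusted p = 0.148). Trabd2b RNA was still present in cKO, but counts over the whole gene do not show whether the floxed part was removed. Control replicate 1 differed from the other libraries in sex: it had 112185 counts of Xist, made in female cells, and 0 of the Y-linked Ddx3y, while the others had 36 to 171 and 11073 to 12085. The summed level of 14 chondrocyte markers, in CPM (counts scaled to the library size), was 17141 and 12772 in cKO and 29115 and 33765 in controls. All 14 markers had both cKO libraries below both controls, against 24.9% of all tested genes. Of the 14, 11 were called lower by edgeR and none higher, against 0.908% of all tested genes lower and 0.393% higher. Their median log2 fold change (edgeR) was -1.28. It was -1.35 when control replicate 1 was left out, and -1.16 when control replicate 2 was left out. The summed level of 8 adipocyte markers was 391 and 615 CPM in cKO and 290 and 295 CPM in controls, and that of 12 fibroblast markers was 11032 and 11858 CPM in cKO and 8710 and 8838 CPM in controls. In bulk cultures, fewer cells of a type and less RNA per cell cannot be told apart. Of the 12 macrophage markers, Fcgr1, Tyrobp and Cx3cr1 were at 0 in every library, Ptprc had 16 counts in control replicate 1 and 0 elsewhere, and Adgre1 had 7 counts in cKO replicate 2 and 0 elsewhere. Csf1r, Cd68, Cd14, Lyz2, Mrc1 and Mpeg1 were counted in every library, and edgeR called none of these 6. Mpeg1 had 104 and 166 counts in cKO and 42 and 51 in controls (2.56-fold, edgeR adjusted p = 0.177) and Mrc1 189 and 222 in cKO and 107 and 126 in controls (1.56-fold, edgeR adjusted p = 0.313). The macrophage sum was 25.1 and 27.4 CPM in cKO and 27.0 and 20.2 CPM in controls. The sum of 7 endothelial markers was 6.01 and 6.40 CPM in cKO and 4.87 and 5.85 CPM in controls. Liver markers were at or near 0, with 0 and 0.342 CPM in cKO and 0.285 and 0 CPM in controls over 7 genes, of which Alb, Apoa1, Ttr, Fga and Fgb had 0 counts throughout.

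None of the 9 complement genes differed between cKO and control in the edgeR quasi-likelihood test at a Benjamini-Hochberg adjusted p under 0.05. Over all 15522 genes tested, 1.30% were called, 0.393% higher and 0.908% lower in cKO, so with 9 genes a count of 0 lies near this background. At an unadjusted p under 0.05, Cd55 was higher and C3 lower, against 8.36% of all genes higher and 8.88% lower. DESeq2 called the same pair, but of the 18481 genes it tested it called 491 higher and 604 lower, more than edgeR did. Limma-voom called 0 of the 9, against 106 higher and 227 lower over all genes. The fold changes went both ways, with 4 above 0 and 5 below, a median log2 fold change of -0.04 against 0.00 for all genes, and the summed level of the 9 was 2998 and 3328 CPM in cKO and 3572 and 3052 CPM in controls. The chondrocyte, adipocyte and fibroblast sums given above differed between the same libraries, and their part in these values was not tested.

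**Figure D1:**
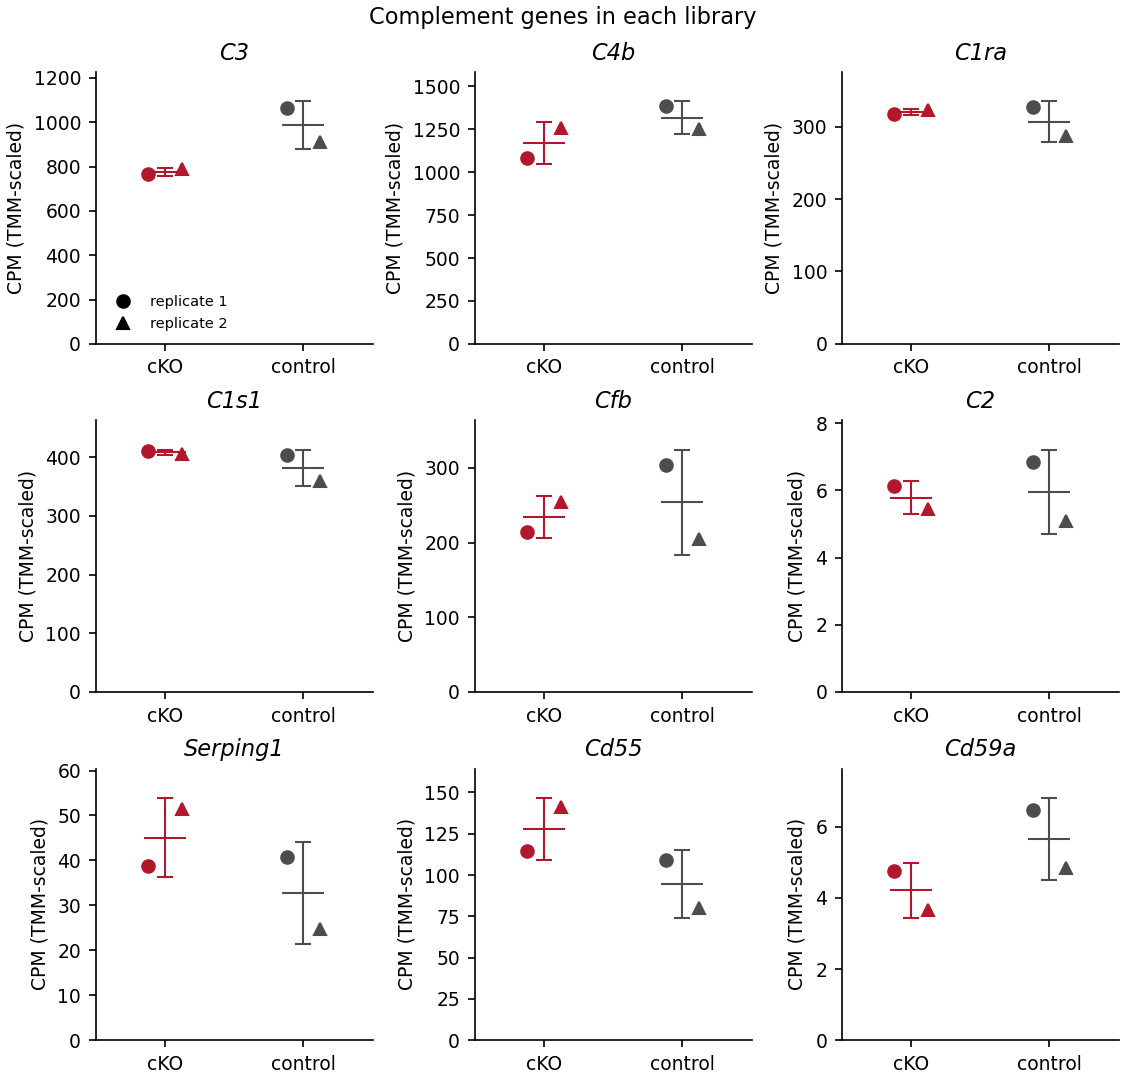
Level of each of the 9 complement genes in TMM-scaled CPM (vertical axes from 0), with a circle for replicate 1 and a triangle for replicate 2 in cKO and control; the horizontal bar is the mean and the whiskers are the SD of 2 libraries. The groups are apart for C3, C1s1, Cd55 and Cd59a and overlap for the other genes, and control replicate 1 is above control replicate 2 in every panel.

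The initiating proteases C1r and C1s had nearly equal levels in the 2 genotypes. C1ra (chromosome 6, 124512405 to 124523443), which encodes C1r, had 318 and 324 CPM in cKO and 327 and 287 CPM in controls. C1s1 (chromosome 6, 124530345 to 124542359), which encodes C1s, had 411 and 405 CPM in cKO and 404 and 360 CPM in controls. The cKO libraries of C1ra fell between the control libraries, and those of C1s1 lay just above them. The log2 fold changes, cKO over control, were 0.06 ± 0.08 (SE) for C1ra (edgeR adjusted p = 0.739) and 0.10 ± 0.07 for C1s1 (edgeR adjusted p = 0.566). The 95% intervals ran from -0.12 to 0.25 and from -0.08 to 0.27, and reflect the spread between 2 libraries per group alone. Per kilobase of annotated exon, C1s1 stood above C1ra by nearly the same factor in each library. That factor was 1.23 and 1.19 in cKO and 1.18 and 1.20 in controls. The proteins act as a tetramer with equal numbers of each, but RNA levels do not measure protein. Gm16567, an antisense gene that is not among the gene symbols counted, overlaps 18.4% of the C1s1 exon bases.

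C4b and C2 encode the substrates of C1s. C4b (chromosome 17, 34728380 to 34743882) was the most abundant of the 9, with 1082 and 1259 CPM in cKO and 1385 and 1251 CPM in controls. The groups overlapped, with a log2 fold change of -0.17 ± 0.09 (SE; edgeR adjusted p = 0.402). C2 (chromosome 17, 34862604 to 34898265), the protease of the classical C3-cutting enzyme, was among the lowest, at 6.13 and 5.44 CPM in cKO and 6.85 and 5.08 CPM in controls. Its cKO values lay between the control values, and its log2 fold change was -0.04 ± 0.21 (SE; edgeR adjusted p = 0.943), with a 95% interval from -0.55 to 0.46 that does not exclude moderate changes. Its direction turned with library sizes alone (0.02).

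Cfb (chromosome 17, 34856374 to 34862518) encodes factor B, the alternative-route counterpart of C2. Its level was 214 and 254 CPM in cKO and 304 and 204 CPM in controls, with all of the cKO values inside the control range. The log2 fold change was -0.12 ± 0.18 (SE; edgeR adjusted p = 0.807). Without control replicate 1 it was 0.20, and without control replicate 2 it was -0.38, so the sign depended on which control library was kept. Per kilobase, Cfb exceeded C2 by a factor of 48.0 and 64.0 in cKO and 60.8 and 55.1 in controls. Gm20547, a protein-coding gene annotated on the same strand, covers 79.5% of the Cfb exon bases and 42.8% of those of C2. It is not among the gene symbols counted, and no source used here says how reads in the shared exons were assigned.

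C3 (chromosome 17, 57203970 to 57228136), where the routes meet, had the lowest p of the 9. It had 764 and 787 CPM in cKO and 1063 and 912 CPM in controls, means of 776 ± 16.2 and 987 ± 107 CPM (SD, n = 2 each). Both cKO libraries were below both controls. The log2 fold change was -0.35 ± 0.08 (SE, 95% interval -0.55 to -0.15), 1.27-fold lower in cKO, with an edgeR p of 0.00495 before adjustment and 0.108 after it. The adjusted p was 0.00109 by DESeq2 and 0.0843 by limma-voom, and in edgeR with another scaling, no filter, the replicate block or a library left out it ran from 0.11 to 0.319. Without control replicate 1 the log2 fold change was -0.23, and without control replicate 2 it was -0.45. Among the 9 genes, 2 had both cKO libraries below both controls and 2 had them above, against 24.9% of all tested genes in each direction and 49.8% in either. C3 and C4b together made up 62.5% and 63.3% of the counts of the 9 genes in cKO and 67.1% and 69.1% in controls.

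**Figure D2:**
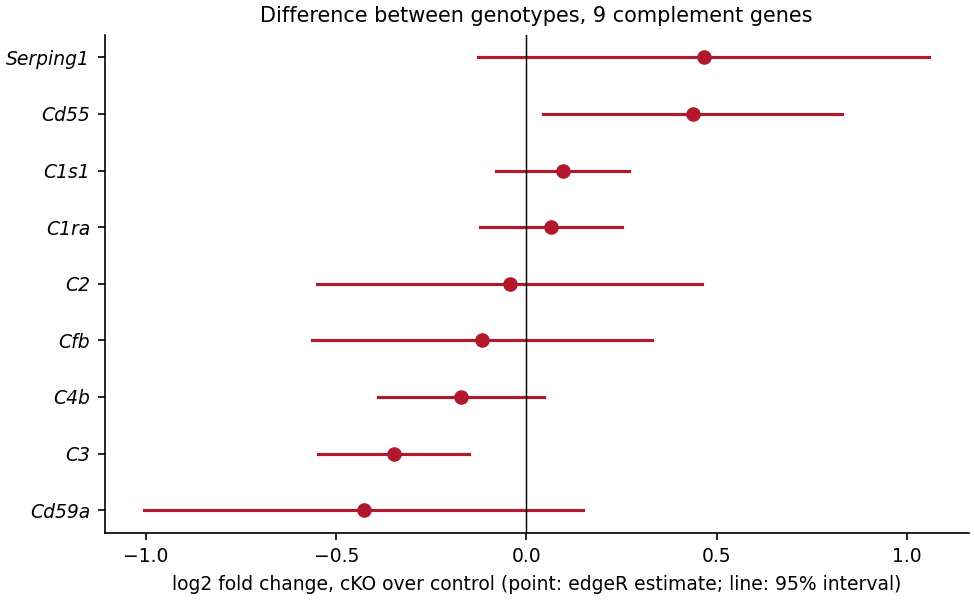
Log2 fold change of each complement gene, cKO over control, as a point (edgeR estimate) with a line for its 95% interval, ordered from the highest at the top to the lowest. The intervals of C3 (-0.55 to -0.15) and Cd55 (0.04 to 0.83) leave out 0, and the other 7 include it.

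Of the 3 regulators, Cd55 and Serping1 had the highest fold changes of the 9 genes with all 4 libraries fitted, and Cd59a the lowest. Cd55 (chromosome 1, 130439027 to 130462744) had 115 and 141 CPM in cKO and 109 and 79.9 CPM in controls, so that the lower cKO library was close to the higher control. Its log2 fold change was 0.44 ± 0.16 (SE), 1.35-fold higher in cKO, with an edgeR p of 0.0348 before adjustment and an edgeR adjusted p of 0.245. The adjusted p was 0.0471 by DESeq2 and 0.204 by limma-voom. Without control replicate 2 the log2 fold change of Cd55 was 0.23. Serping1 (chromosome 2, 84765387 to 84775444) had 38.8 and 51.4 CPM in cKO and 40.7 and 24.7 CPM in controls. These groups overlapped, and the log2 fold change of 0.47 ± 0.24 (SE; edgeR adjusted p = 0.402) was 0.15 without control replicate 2 and 0.87 without control replicate 1. Cd59a (chromosome 2, 104095801 to 104115354) was at 4.76 and 3.67 CPM in cKO and 6.48 and 4.85 CPM in controls. Its cKO libraries lay below the controls, with a log2 fold change of -0.43 ± 0.24 (SE; edgeR adjusted p = 0.431). Without control replicate 1 that of Cd59a was -0.20, and without cKO replicate 2 it was -0.25, and in both of these fits C3 was lower. The per-kilobase ratio of C3 to Cd55, chosen after their values were seen, was 6.28 and 5.25 in cKO and 9.17 and 10.8 in controls.

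The control libraries also differed from each other. All 9 genes were higher in control replicate 1, the library with Xist counts, than in control replicate 2, against 49.1% of all tested genes. The ratio of the 2 control libraries ran from 1.11 for C4b to 1.65 for Serping1, and was 1.49 for Cfb and 1.37 for Cd55. In cKO, 3 of the 9 were higher in replicate 1, against 49.9% of all tested genes. With 1 library of that sex, sex and the library cannot be told apart, and no comparison of genotypes within it was possible. Without it, 6 of the 9 genes had a fold change above 0, and without control replicate 2, 3 had.

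**Figure D3:**
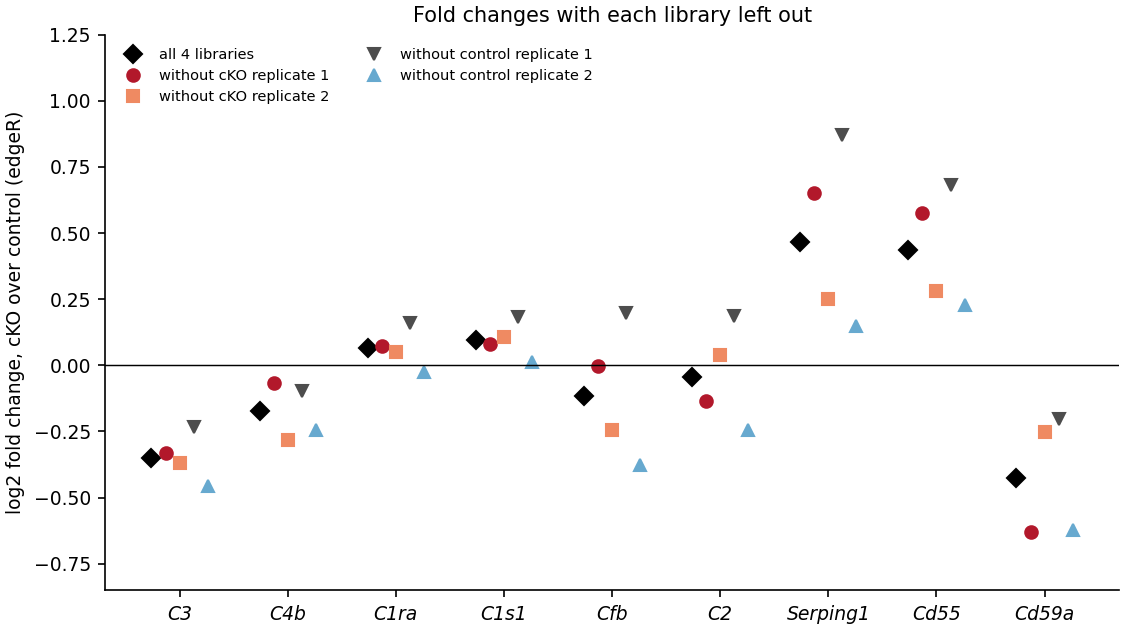
Log2 fold change of each complement gene, cKO over control (edgeR), with all 4 libraries (diamond) and with each library left out in turn. C3, C4b and Cd59a stay below 0 and C1s1, Serping1 and Cd55 above 0 in all of these fits, while Cfb, C2 and C1ra cross 0, and the values without control replicate 1 lie above those without control replicate 2 for each gene.

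Set per kilobase of exon, the 9 genes spanned a wide range of levels. C4b was highest at 206 ± 22.0 in cKO and 231 ± 16.7 CPM per kb in controls, followed by C3 at 151 ± 3.16 and 192 ± 20.7, C1s1 at 130 ± 1.47 and 122 ± 9.96, and C1ra at 108 ± 1.38 and 103 ± 9.49 CPM per kb in cKO and controls (SD, n = 2 each). Cfb followed at 82.9 ± 9.87 in cKO and 89.9 ± 24.9 CPM per kb in controls. The regulators were lower, with Cd55 at 26.4 ± 3.87 in cKO and 19.5 ± 4.29 CPM per kb in controls and Serping1 at 19.4 ± 3.81 in cKO and 14.1 ± 4.87 CPM per kb in controls. Cd59a had 2.33 ± 0.426 in cKO and 3.13 ± 0.636 CPM per kb in controls, and C2 had 1.49 ± 0.125 in cKO and 1.54 ± 0.323 CPM per kb in controls. Over the 4 libraries, the ranges of C4b and C3, of C1ra and Cfb, and of Cd55 and Serping1 overlapped, while those of the other neighbours in this order did not.

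**Figure D4:**
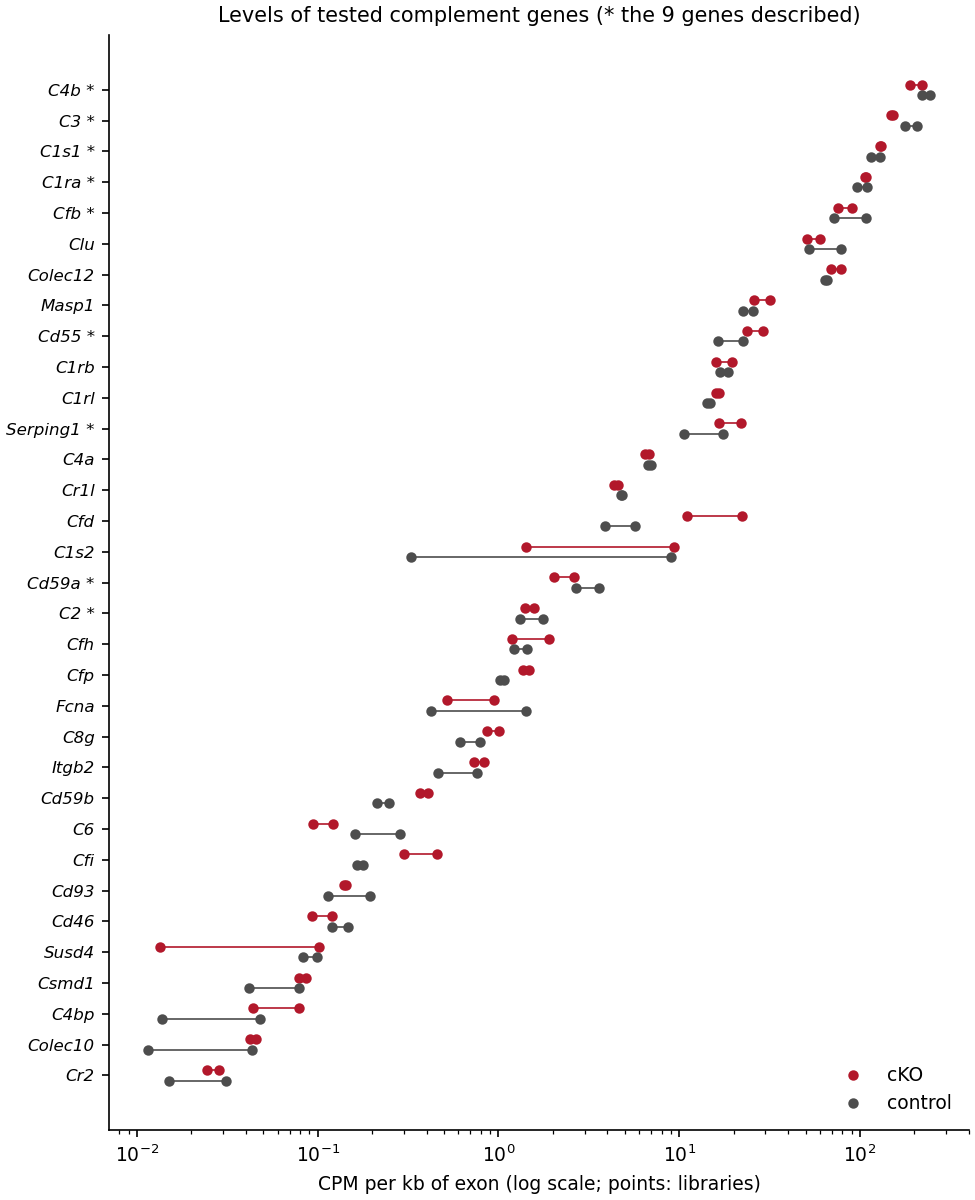
Level per kilobase of exon (horizontal log axis, CPM per kb) of the 33 tested complement genes with counts in all 4 libraries, with a point per library, cKO above control for each gene and a line joining the 2 libraries of a group; a star marks the 9 genes described. The early components C4b, C3, C1s1, C1ra and Cfb lead the order, at 72.3 CPM per kb or more in each library, and the receptor gene Cr2 is at the bottom.

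Of 49 other complement genes, 11 had 0 counts in all libraries and 27 passed the filter, and edgeR called none of these 27. At an unadjusted p under 0.05, 4 were higher and 1 lower, against 8.36% and 8.88% of all tested genes. DESeq2 called 1 higher, Cfd, against 491 over all genes, and limma-voom 1 lower, Cd55b, against 227 over all genes. The median log2 fold change of the 27 was 0.20, with 17 above 0 against 50.4% of all genes. Several genes of the recognition step and of the last steps had few or no counts. C1qb, which encodes a chain of C1q, had 0 counts in every library, while C1qa had 0 and 0 in cKO and 12 and 0 in controls, and C1qc had 0 and 0 in cKO and 5 and 0 in controls. C8a, C8b and C9 of the attack complex had 0 counts throughout, C7 had 0 and 14 counts in cKO and 8 and 0 in controls, and Hc, which encodes C5, had 36 and 11 counts in cKO and 0 and 0 in controls. The edgeR adjusted p of Hc was 0.141. Others of these steps were counted in every library. Fcna, which encodes a ficolin of the lectin route, had 55 and 106 counts in cKO and 38 and 147 in controls, C6 had 26 and 35 in cKO and 66 and 43 in controls, and C8g had 117 and 105 in cKO and 77 and 69 in controls. The receptors C3ar1 and C5ar1 did not exceed 7 counts in any library.

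Cfd encodes factor D, also named adipsin, the protease that activates factor B and a known product of fat cells. It had the largest difference among the complement genes with counts in every library, at 10.1 and 20.6 CPM in cKO and 5.24 and 3.58 CPM in controls. Both cKO libraries were above both controls, and the level of cKO replicate 2 stood above that of replicate 1. The log2 fold change was 1.80 ± 0.36 (SE; edgeR adjusted p = 0.0786), 3.48-fold higher in cKO, and passed in DESeq2 (adjusted p = 8.4e-06) and in edgeR without cKO replicate 1 (log2 fold change 2.22, adjusted p = 0.00444). It did not pass in limma-voom (adjusted p = 0.114), in edgeR with the replicate block (adjusted p = 0.14) or in edgeR with any other single library left out (adjusted p from 0.125 to 0.307), and without cKO replicate 2 its log2 fold change was 1.20. The 8 adipocyte markers, a list that leaves Cfd out, summed to 391 and 615 CPM in cKO and to 290 and 295 CPM in controls. Their order over the cKO libraries was that of Cfd, but an order of 2 libraries shows no link. All 7 tested adipocyte markers had fold changes above 0, against 50.4% of all tested genes, and edgeR called none of them. For 4 of the 7 both cKO libraries were above both controls, against 24.9% of all tested genes. At an unadjusted p under 0.05, 4 of the 7 were higher, against 8.36% of all tested genes. DESeq2 called 3 higher, Adipoq, Plin1 and Lpl, against 491 over all genes, and limma-voom 0, against 106 over all genes. The edgeR median log2 fold change of the 7 was 0.88 with all 4 libraries and 1.27 without cKO replicate 1. Without cKO replicate 2 it was 0.38, with 5 of the 7 above 0. Lep was at 0 in every library. The part of these cells in the Cfd values was not tested.

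Other abundant complement genes were not called by edgeR either. Masp1, Colec12 and C1rl had both cKO libraries above both controls, Cr1l had them below, and Clu overlapped. Of all tested genes, 24.9% lay apart in each direction. The edgeR p before adjustment was 0.038 for Colec12, 0.0477 for C1rl and 0.0575 for Masp1. Masp1, whose protease serves the lectin route, had 256 and 312 CPM in cKO and 252 and 223 CPM in controls (log2 fold change 0.26 ± 0.11, SE; edgeR adjusted p = 0.308). Colec12, a scavenger receptor that binds sugars, had 607 and 689 CPM in cKO and 561 and 572 CPM in controls, with an edgeR adjusted p of 0.255, and of 0.0465 without cKO replicate 1. Clu, the fluid-phase inhibitor clusterin, had 175 and 206 CPM in cKO and 271 and 179 CPM in controls. Cr1l, the mouse membrane regulator Crry, had 47.6 and 45.3 CPM in cKO and 49.5 and 49.7 CPM in controls, with an edgeR adjusted p of 0.543. C1rl, a protease related to C1r, had 50.3 and 48.3 CPM in cKO and 43.0 and 44.5 CPM in controls (edgeR adjusted p = 0.284).

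Several of the 9 genes have close copies, so part of their reads could be assigned to either copy. Of all windows of 50 bases in the GENCODE transcripts of C1ra, 48.0% also occur in C1rb; the shares are 34.6% for C4b in C4a, 21.8% for C1s1 in C1s2, 8% for Cd55 in Cd55b and 3.87% for Cd59a in Cd59b. C4a, the copy known as sex-limited protein, had 42.0 and 40.4 CPM in cKO and 43.2 and 42.0 CPM in controls, and C1rb had 47.5 and 38.8 CPM in cKO and 40.9 and 45.3 CPM in controls. C1s2 varied most, with 1936 and 307 counts in cKO and 57 and 1799 in controls, 5.72% and 0.925% of the C1s1 and C1s2 counts in cKO and 0.215% and 6.22% in controls. It was high in a library of each genotype and low in the other. Cd55b had 0 and 0 counts in cKO and 47 and 38 in controls. With a floor of 3 counts per library in place of 0, its mean level in controls was 16.2 times that in cKO. The edgeR adjusted p of Cd55b was 0.0676 and its limma-voom adjusted p 0.0373. Cd59b had 37 and 43 counts in cKO and 21 and 21 in controls, with an edgeR adjusted p of 0.632. With each gene and its copy counted together, the log2 fold changes were -0.17 for C4b, 0.06 for C1ra, 0.10 for C1s1, 0.43 for Cd55 and -0.34 for Cd59a, and the edgeR test called none of them (adjusted p from 0.254 to 0.742).

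Of 15 transcription factors known to act on complement genes, edgeR called none. At an unadjusted p under 0.05, 2 were higher and 3 lower, against 8.36% and 8.88% of all tested genes. Of the 15, DESeq2 called 2 higher, Cebpa among them, and 2 lower, Cebpb and Cebpd. Over all genes it called 491 higher and 604 lower. Limma-voom called 1 of the 15 lower, Cebpd, against 106 higher and 227 lower over all genes. In edgeR without cKO replicate 1 the log2 fold change was 1.31 for Cebpa and -0.37 for Cebpd. Without cKO replicate 2 these were 0.67 and -0.30. Cebpd, an acute-phase member of the C/EBP family, had 83.0 and 79.6 CPM in cKO and 102 and 103 CPM in controls, with a log2 fold change of -0.33 ± 0.06 (SE; edgeR adjusted p = 0.0571). Cebpa, a family member of liver and fat cells, had 27.7 and 43.4 CPM in cKO and 17.6 and 17.3 CPM in controls (log2 fold change 1.03 ± 0.20, SE; edgeR adjusted p = 0.0765). The adipocyte sums given above ran in the same order as Cebpa over the cKO libraries but not over the controls.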

How the data were processed

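Poly(A) RNA of 4 libraries was captured on oligo(dT) beads, fragmented and primed at random, per the labels' protocols. The authors deposited a table of raw counts, whole numbers per gene symbol, not scaled. Among low counts, 31.5% and 32% in cKO and 31% and 30% in controls were multiples of 4. No expected share was computed and the reason was not tested, and the counts may not be single reads. HISAT2 2.2.1, StringTie 2.1.7, FastQC 0.11.9, Trim Galore 0.6.7 and the build mm10 are named, without their roles, in the submitters' processing notes. No source used here gives the counting tool, its strand setting or its annotation, so reads shared by overlapping, antisense or closely similar genes may be split in unknown ways.

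Genes were kept by filterByExpr (minimum count 10; 15522 kept), scaled by TMM and tested with edgeR 4.0.16 in R 4.3.3 (glmQLFit, glmQLFTest), cKO against control without covariates; p-values were adjusted by Benjamini-Hochberg over all genes, threshold 0.05. SE was taken as |log2 fold change|/√F. CPM uses the TMM-scaled library size, except sums over lists and shares. The script was tested on simulated data. Alternatives were DESeq2 1.42.0, limma-voom (limma 3.58.1), other scalings, no filter, a replicate block, each library left out and copies summed. Exon lengths and positions come from GENCODE M21 on mm10. Floors of 3 counts cover counting error only.

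The members, lists and tests were chosen with earlier results of these data known. Named besides the 9 were their copies and, of the other complement genes, those called, the 6 of lowest p and the 6 of highest level; other lists name up to 3 by p, of which 1 gene is not reported here. Cebpb, Cr2, C1qa, C1qb, C1qc, Fcna, C6, C7, C8a, C8b, C8g, C9, C3ar1 and C5ar1, and marker genes, were named after their values were seen.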

Additional observations from a re-analysis of the deposited data

How the results depend on the processing

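Over all tested genes, edgeR called 61 higher and 141 lower in cKO, against 491 and 604 with DESeq2, 106 and 227 with limma-voom, 116 higher with library sizes alone, and, with a library left out, 1 to 312 higher and 4 to 470 lower (1 and 4 without control replicate 1, 6 and 13 without control replicate 2, 312 and 470 without cKO replicate 1). Of the 9 complement genes, 0 were called higher or lower in each edgeR fit with a library left out; DESeq2 called 1 higher and 1 lower. Of the other complement genes, DESeq2 called 1 higher, limma-voom 1 lower, and the fits with a library left out 0 to 2 higher, the 2 being Cfd and Colec12 without cKO replicate 1. Library sizes alone moved the median log2 fold change of all genes to 0.07, and turned C2 (0.0195) and C4a (0.0168); limma-voom turned C1rb (-0.0107). With a library left out, the log2 fold change ran from -0.0269 (without control replicate 2) to 0.16 for C1ra, from -0.38 to 0.20 (without control replicate 1) for Cfb, from -0.24 to 0.19 for C2 (0.19 without control replicate 1 and 0.0399 without cKO replicate 2), from -0.15 (without cKO replicate 1; -0.0708 without control replicate 1) to 0.14 for C1rb, from -1.72 (without cKO replicate 1; -0.73 without control replicate 1) to 4.04 for C1s2, and from -0.51 to 0.0879 (without control replicate 1) for Clu; the cause was not tested. Over the alternatives for the 9 genes, 88 values kept their direction and side of the threshold, 5 turned and 2, C3 and Cd55 with DESeq2, passed it.

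The replicate numbers are shared between the groups, but nothing says that they pair the libraries. The deviations of same-numbered libraries correlated at -0.122 over 15522 genes. With a replicate block, edgeR called 3 genes higher and 20 lower, none of them among the complement genes, and C1rb turned (-0.0046). The crossed replicate block, chosen after seeing the data, gave 223 higher and 341 lower, with 1 and 1 of the 9 complement genes and 1 higher among the other complement genes.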
